A study of Mus musculus with 15 samples.

Results

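The genes described here encode the proteins of the mitochondrial ribosome and of the mitochondrial protein import channels, read through the accessibility of their chromatin in mouse pancreatic islets. Membership was set by name: a listed peak is a member if its annotated gene symbol starts with Mrpl, Mrps, Timm or Tomm followed by a digit. The set itself was chosen with earlier results of these data known. Over the 4 deposited tables, 48 of the 10268 genes named in them were members, with 59 distinct peaks. Partial pancreatectomy is abbreviated PPx, and the group labelled as knockout is called KO-labelled. The 2 tables that compare genotypes held 35 member peaks of 7826 listed before PPx and 57 of 13111 after it. The 2 tables that compare times held 35 of 8070 in controls and 56 of 12767 in KO-labelled islets.

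Mitochondria carry a small genome of their own, and its messages are translated by a dedicated ribosome. All proteins of that ribosome are encoded in the nucleus, made in the cytosol and imported. Precursors enter through the TOM complex of the outer membrane. The TIM23 complex then passes those bound for the matrix or the inner membrane, and the TIM22 complex inserts carrier proteins with the help of small TIM chaperones in the intermembrane space. In beta cells the respiratory chain, whose core subunits this ribosome makes, couples glucose breakdown to insulin release.

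Accessibility was measured by ATAC-seq, which uses the Tn5 transposase to insert adapters into open DNA, on islets of 3-month-old males. Every mouse was Arid1a Fl/Fl, so the gene for this DNA-binding subunit of SWI/SNF remodellers could be deleted, and had MIP-rtTA, a doxycycline-dependent activator under the mouse insulin promoter. Every mouse drank doxycycline (1 g/L) for 2 weeks. Mice labelled as knockout (Arid1a βKO) also had TRE-Cre, so that Cre depends on the insulin promoter, whereas islets also hold other cell types. Before PPx 4 controls and 3 KO-labelled mice were sampled, and 6 days after it 4 of each. PPx, an operation that removes much of the pancreas, was done 1 week after doxycycline was withdrawn.

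All group means, folds, p-values and false discovery rates (FDR) given here are those of the authors' deposited tables, in which a level is the group mean of log2 normalised reads in a peak of 601 bp. A fold is the difference of 2 such means, turned to read KO-labelled minus control or after minus before PPx. A peak is said to rise or fall where its deposited FDR was 0.05 or below. Values of single libraries and depth per library are not analysed here, so the spread enters through the deposited p and the standard error (SE) computed from it. A listed Arid1a peak went against a loss of signal: its level was 1.21 in controls and 5.49 in KO-labelled islets before PPx, and 0.40 and 4.04 after it. Of the beta cell markers, 4 peaks were listed before PPx and 12 after it. Before PPx 0 of the 4 met the FDR. Their genotype folds ran from -1.45, at an intron of Slc30a8 (deposited p 0.0011), to 0.95, at Ins1. After PPx 2 of the 12 (promoters of Ins1 and Nkx6-1) rose with genotype, beside 9.89% of all listed peaks. The folds of the 12 ran from -0.15, at the same intron, to 1.52, at a distal peak of Nkx6-1. Lists of acinar, ductal, stellate, leukocyte and Schwann cell markers had 0 to 2 peaks a table, endothelial markers 1 to 5, alpha markers 2 to 4, and delta and PP markers 1, which was at Sst and rose with genotype after PPx (fold 1.12). Their part in the results was not tested. In bulk islets, fewer cells of a type and less signal per cell cannot be told apart.

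To show what lies under these peaks, the sequence just before the start is printed for 7 members, from RefSeq on GRCm38.p6 (the mm10 build). Only bases outside any RefSeq gene are given, 5′ to 3′ on the strand of the member. Capitals mark matches to 5 motifs searched on both strands: the NRF1 core GCGCANGCG, the ETS box CCGGAAG, the YY1 box AAGATGGC, the SP and KLF box GGGCGG and the cyclic AMP response element (CRE) TGACGTCA. Mrps14, a small subunit protein, and Mrpl46, a large subunit protein, are shown because their peaks rose in both tables that held KO-labelled islets after PPx. The promoter peak of Mrps28 rose in both too, but no RefSeq promoter sequence was at hand for it.
Mrps14, chr1:160194965-160195214, plus strand: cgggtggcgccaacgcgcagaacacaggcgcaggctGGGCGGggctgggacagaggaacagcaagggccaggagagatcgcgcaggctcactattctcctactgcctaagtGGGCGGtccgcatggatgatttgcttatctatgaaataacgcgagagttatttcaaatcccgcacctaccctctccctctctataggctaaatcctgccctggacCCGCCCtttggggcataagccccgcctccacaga
Mrpl46, chr7:78783090-78783130, minus strand: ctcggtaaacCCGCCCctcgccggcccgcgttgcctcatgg

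The Mrpl46 stretch is only 41 bases long because the gene for another ribosomal protein, Mrps11, starts on its far side and runs the other way. The promoter of Mrps14 had 3 SP and KLF boxes, starting 214, 139 and 34 bases before the start. Mrpl39, a large subunit protein whose peak was among the most accessible, had 2 NRF1 cores that overlap on opposite strands, at 125 and 124 bases before the start.
Mrpl39, chr16:84735245-84735494, minus strand: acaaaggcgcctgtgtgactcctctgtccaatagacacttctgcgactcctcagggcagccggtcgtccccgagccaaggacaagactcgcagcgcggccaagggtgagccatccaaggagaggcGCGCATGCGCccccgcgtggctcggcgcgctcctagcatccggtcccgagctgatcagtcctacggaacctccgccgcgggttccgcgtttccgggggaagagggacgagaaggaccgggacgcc

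Of the import genes whose peaks rose after PPx in KO-labelled islets, the next shown are Timm10, a small TIM chaperone, with an ETS box 16 bases before its start, and Timm17b, a channel subunit of TIM23, with none of the 5 motifs in the 66 bases up to its neighbour Pqbp1.
Timm10, chr2:84826848-84827020, plus strand: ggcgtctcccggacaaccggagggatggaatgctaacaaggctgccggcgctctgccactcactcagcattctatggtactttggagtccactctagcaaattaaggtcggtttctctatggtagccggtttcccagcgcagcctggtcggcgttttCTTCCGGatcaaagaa
Timm17b, chrX:7899270-7899335, plus strand: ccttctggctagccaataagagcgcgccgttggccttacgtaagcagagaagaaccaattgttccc

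For contrast, Mrpl16 (large subunit) and Timm44, which tethers the import motor to TIM23, had some of the smallest folds in the same tables.
Mrpl16, chr19:11770165-11770414, plus strand: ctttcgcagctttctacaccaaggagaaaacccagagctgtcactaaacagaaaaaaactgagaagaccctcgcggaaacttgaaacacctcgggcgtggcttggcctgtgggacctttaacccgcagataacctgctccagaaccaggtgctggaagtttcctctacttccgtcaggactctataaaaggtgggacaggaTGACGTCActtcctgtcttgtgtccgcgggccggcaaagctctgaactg
Timm44, chr8:4275906-4276155, minus strand: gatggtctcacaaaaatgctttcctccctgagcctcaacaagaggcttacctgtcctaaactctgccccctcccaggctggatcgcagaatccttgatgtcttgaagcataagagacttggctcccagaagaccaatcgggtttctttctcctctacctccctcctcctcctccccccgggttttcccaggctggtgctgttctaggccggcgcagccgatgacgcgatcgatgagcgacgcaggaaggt

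Across the family as named in RefSeq, 48 of 103 protein-coding genes (46.6%) had a listed peak in at least 1 table, against 36.5% of all 21900 protein-coding genes. The share was 24 of 49 for the large subunit, 11 of 29 for the small subunit, 3 of 10 for TOM, 4 of 6 for TIM23, 2 of 2 for TIM22 and 4 of 7 for the small TIM genes. Each peak is annotated to 1 gene only, so Mrps11, whose start lies inside the Mrpl46 peak, counts here as unlisted. Genes of core import subunits without a listed peak included Tomm20 and Tomm22, which encode precursor receptors, Tomm40, which encodes the outer membrane channel, and Timm23, which encodes the inner membrane channel. Of the 48 genes listed, 30 were in all 4 tables, 4 in 3, 11 in 2 and 3 in 1. Names set these groups: Mrps36 is also known as a subunit of the 2-oxoglutarate dehydrogenase complex, and Mrps30 is now placed in the large subunit.

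Before PPx, no member peak differed by genotype. At the deposited FDR 0 of 35 member peaks rose and 0 fell, and 0 had an unadjusted p under 0.05, beside 0.0128% of all listed peaks that rose. The median member fold was 0.01, against 0.00 over all listed peaks and 0.04 over all promoter peaks. The highest folds of the authors' deposited table were at Timm8a1, an intermembrane space chaperone (3.04 in controls and 4.02 in KO-labelled islets, fold 0.97, SE 0.52), at Timm44 (3.62 and 4.37, fold 0.75, SE 0.47) and at Mrpl19 (3.90 and 4.49, fold 0.59). The lowest were at Mrps14 (4.62 and 3.88, fold -0.74, SE 0.41), at Timm8b, another small TIM chaperone (3.47 and 2.89, fold -0.58), and at an intronic peak of Mrps27 (3.91 and 3.35, fold -0.56). These extremes were each within 2 implied SE of no difference, and the members lay on both sides of 0, with 18 of 35 above it.

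After PPx, the peaks of 9 mitochondrial ribosome genes were more accessible in KO-labelled than in control islets, by 1.84 to 2.38 times, and none was less accessible. The 9 were 7 large subunit genes and 2 small subunit genes, and all 9 peaks were promoters. None of the 14 TOM and TIM peaks met the deposited FDR of 0.05. The 9 are 15.8% of the 57 member peaks, read against 9.89% of all listed peaks that rose and 14.3% of all promoter peaks. Among the 48 member promoters the share was 18.8%.

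Levels moved as a whole in this comparison, which bears on every fold given for it; what moved them was not tested. The median fold was 0.61 over all listed peaks and 0.71 over promoters, and 90.3% of all folds were above 0. The member median was 0.70, with 55 of 57 folds above 0 and 36 above the median of the table. The deposited unadjusted p was under 0.05 at 27 members (47.4%, all higher), against 33.6% of all peaks and 45.3% of promoters. Member promoters had a median fold of 0.78, and the 9 intronic and distal member peaks 0.45.

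The Mrps28 promoter (chr3:8923478-8924078) had the largest fold of the 9, from 5.16 in controls to 6.40 in KO-labelled islets (fold 1.25, SE 0.33, deposited FDR 0.0212), with the peak called in all 8 libraries. Mrps28 encodes a small subunit protein. The other small subunit gene was Mrps14 (chr1:160194849-160195449), whose level in the authors' deposited table went from 4.41 to 5.46 (fold 1.05, SE 0.32, deposited FDR 0.0298). The same promoter had had the lowest fold of all members before PPx.

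Among large subunit genes, the promoters of Mrpl1 and Mrpl48 rose the most. Mrpl1 (chr5:96209781-96210381), a protein conserved from bacteria, went from 3.08 to 4.31 (fold 1.23, SE 0.40, deposited FDR 0.0348). The second, more accessible promoter peak of Mrpl48 (chr7:100607171-100607771), a subunit without a bacterial counterpart, went from 3.77 to 4.95 (fold 1.17, SE 0.37, deposited FDR 0.0325). For both, 1 control library and all 4 KO-labelled ones had the peak called. The other promoter peak of Mrpl48 had a fold of 0.79 and a deposited FDR of 0.139.

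The other large subunit genes had higher control levels and smaller folds in the authors' deposited table. Mrpl46 (chr7:78782758-78783358) went from 4.04 to 5.00 (fold 0.97, deposited FDR 0.0414). Mrpl39 (chr16:84735025-84735625) went from 5.21 to 6.12 and Mrpl15 (chr1:4785418-4786018) from 4.34 to 5.24, each with a fold of 0.90, at deposited FDRs of 0.0396 and 0.0458. Mrpl41 (chr2:24974776-24975376) went from 4.13 to 5.02 (fold 0.89, deposited FDR 0.0491) and Mrpl50 (chr4:49520831-49521431) from 5.50 to 6.38 (fold 0.88, deposited FDR 0.0466). Mrpl39, Mrpl41, Mrpl46 and Mrpl50 are, like Mrpl48, subunits that bacterial ribosomes lack, while Mrpl15 is conserved. The implied SE of these 5 folds ran from 0.31 to 0.34.

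**Figure D1:**
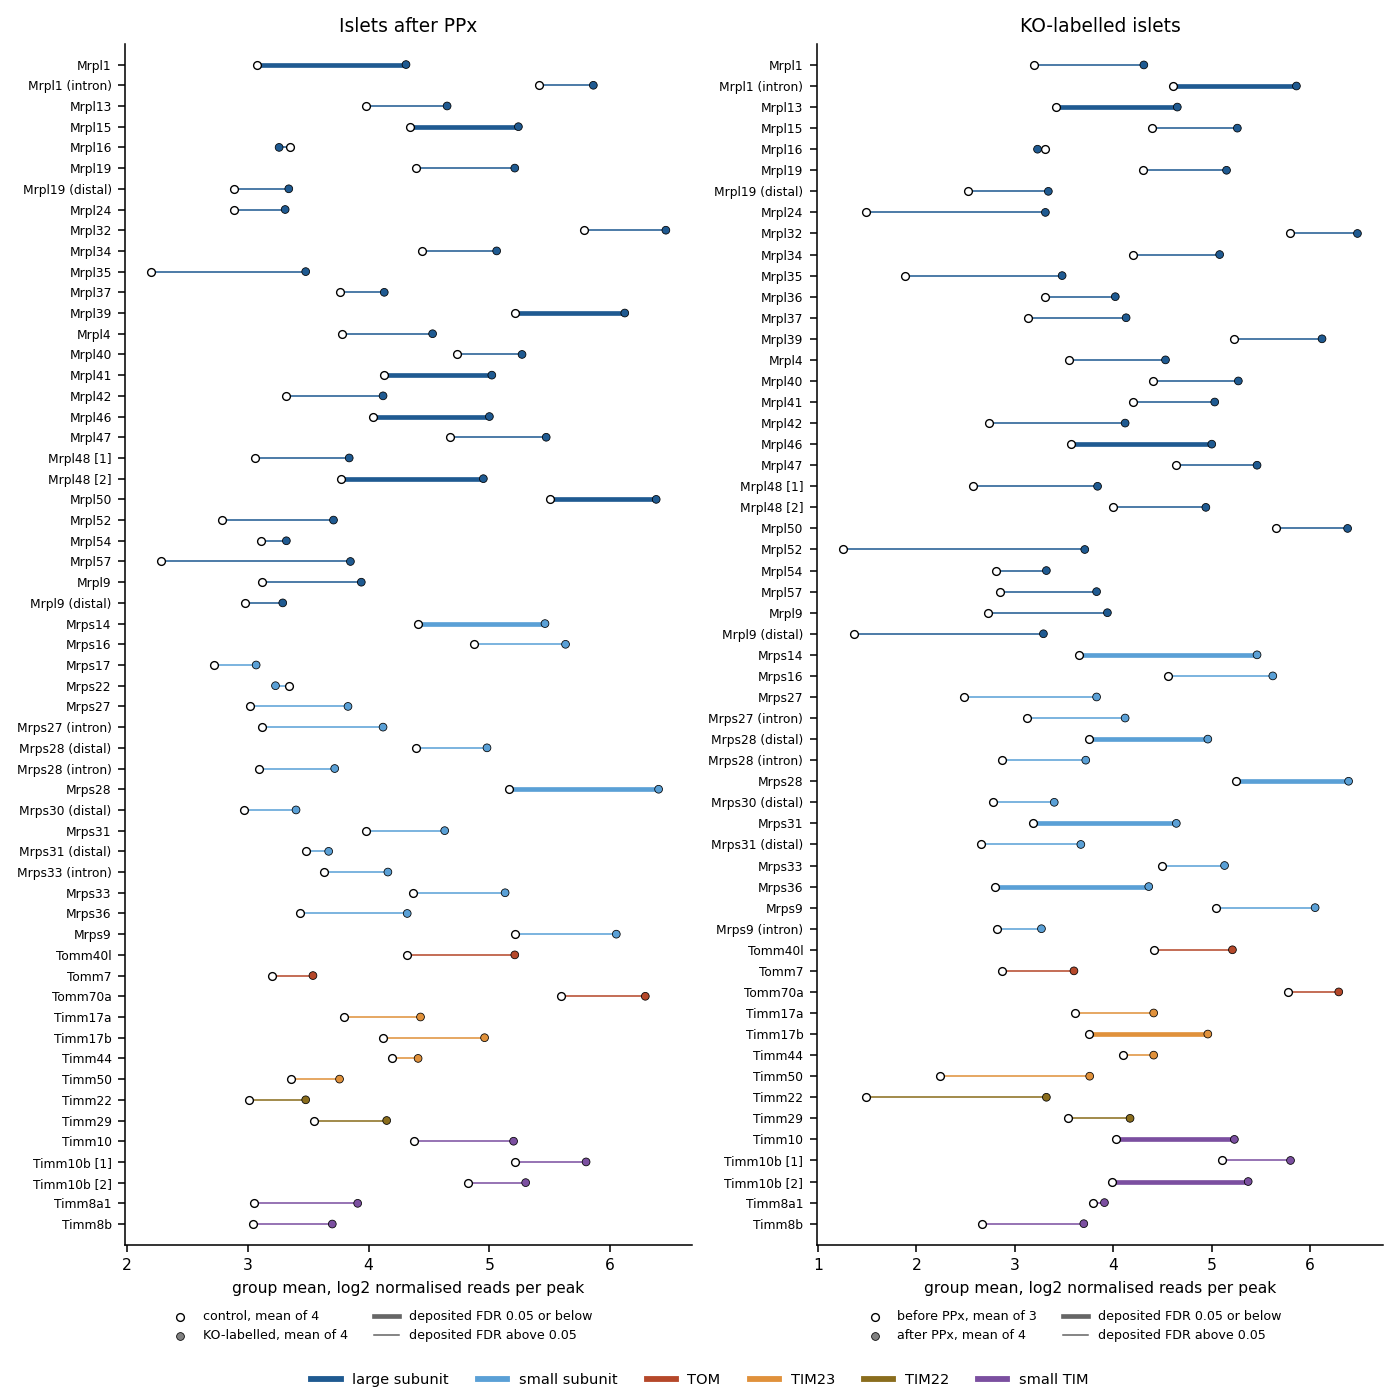
Group means of every member peak, in log2 normalised reads per peak, for control (open) and KO-labelled (filled) islets after PPx on the left, and for KO-labelled islets before (open) and after PPx (filled) on the right. Colours give the complex, thick lines a deposited FDR of 0.05 or below, and numbers in brackets order promoter peaks of 1 gene; 9 lines on the left and 11 on the right are thick, and all of these run to the right.

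Import peaks had folds up to 0.89, and all missed the threshold. Median folds were 0.70 for TOM, 0.51 for TIM23, 0.54 for TIM22 and 0.66 for the small TIM group. They were 0.80 for the large subunit and 0.70 for the small subunit. In the authors' deposited table, the TOM gene with the lowest FDR was Tomm40l, a paralogue of the outer membrane channel (4.32 to 5.21, fold 0.89, deposited FDR 0.0574). For TIM23 it was Timm17b (4.12 to 4.96, fold 0.84, deposited FDR 0.0606), for the small TIM group Timm10 (4.38 to 5.20, fold 0.82, deposited FDR 0.0626), and for TIM22 Timm29 (3.55 to 4.15, fold 0.60, deposited FDR 0.182). The receptor gene Tomm70a had the highest level of the import genes (5.59 to 6.29, fold 0.70, deposited FDR 0.0935). Whether ribosome and import genes differ in their folds was not tested.

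The lowest folds of each complex lay at weak and at strong peaks. Mrps22 (3.34 to 3.23, fold -0.11, SE 0.56) and Mrpl16 (3.35 to 3.26, fold -0.10, SE 0.51) were the only members below 0 in the authors' deposited table after PPx. Timm44 (4.19 to 4.41, fold 0.22), Tomm7, a small subunit of TOM (3.20 to 3.54, fold 0.34), Timm22, the carrier channel (3.01 to 3.48, fold 0.48), and the second peak of Timm10b (4.82 to 5.30, fold 0.49) were the lowest of TIM23, TOM, TIM22 and the small TIM group. Apart from Timm44 and Timm10b, these peaks were called in at most 1 control library.

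Some of the largest folds could not be called. The authors' deposited table gives an FDR of 1 to 16 member peaks, all with a mean concentration of 3.48 or below, while the other 41 members had 3.50 or above. Among the 16 were Mrpl57 (2.28 to 3.85, fold 1.57, SE 0.48, deposited p 0.000974) and Mrpl35 (2.20 to 3.48, fold 1.28, deposited p 0.0124), the highest member folds, and Mrpl52 (2.79 to 3.71, fold 0.92) and the Mrps27 promoter (3.02 to 3.83, fold 0.82), with deposited p of 0.0324 and 0.0458. None of the 4 was called in a control library, and each was called in 2 to 4 KO-labelled ones. Every listed peak was called in 2 or more libraries, so these 4 were listed through KO-labelled libraries alone. Their folds and p-values are therefore not independent of the listing. When the deposited p-values were adjusted by the Benjamini-Hochberg method over all listed peaks, 5 members passed: Mrps28, Mrps14, Mrpl48, Mrpl1 and Mrpl57, beside 4.13% of all listed peaks. Of the 5, Mrpl57 carries the limit of listing just given. With folds taken less the median of the table, 0 members passed, beside 52 of all 13111 listed peaks.

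**Figure D2:**
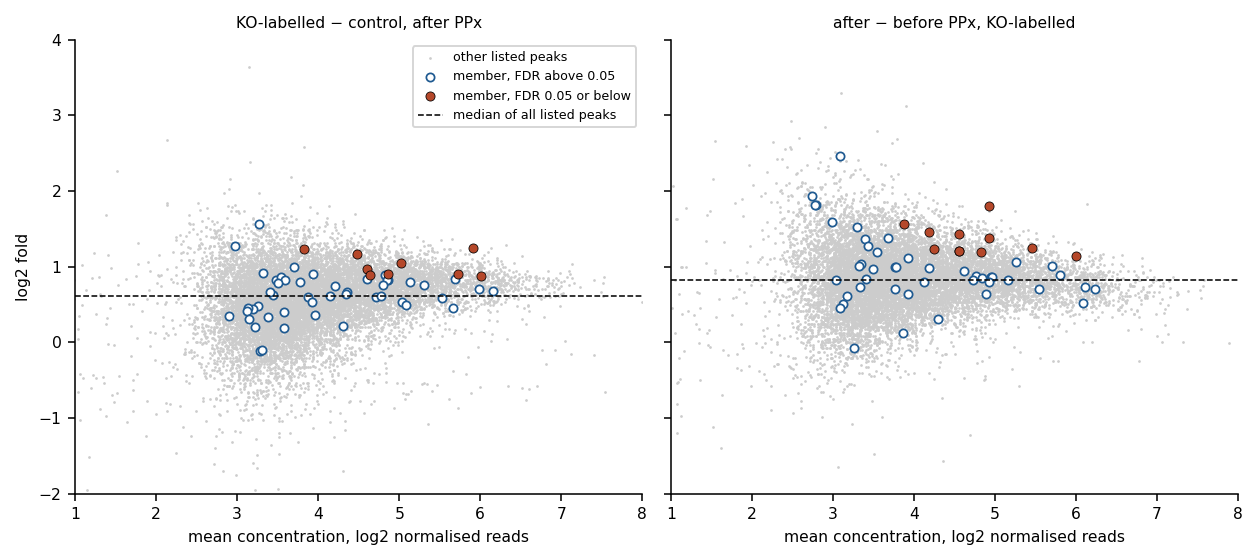
Log2 fold against mean concentration (log2 normalised reads) for the listed peaks within the axes (grey) and for members, in the comparison of genotype after PPx (left) and of PPx in KO-labelled islets (right). The dashed line is the median of all listed peaks, 0.61 on the left and 0.83 on the right; the members that met the deposited FDR of 0.05 (red) all lie above it, and members of low concentration do not meet it at any fold.

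Gene neighbourhoods were close at these promoters. Of the 48 member promoter peaks after PPx, 40 belong to genes with a RefSeq promoter window, and 38 of these held the RefSeq start of their own gene, and 13 of the 38 (34.2%) also held the start of another protein-coding gene, against 9.15% of the 5192 promoter peaks with a coding start. In all 13 the other gene was on the opposite strand. For the risen peaks these were Mrps11 at Mrpl46, with 41 bases between the starts, the vesicle transport gene Rab6a at Mrpl48 (35 bases) and the zinc finger gene Zfp189 at Mrpl50 (92 bases). Other pairs joined Timm8b with Sdhd, a respiratory complex subunit (51 bases), and Mrpl47 with Ndufb5, another one (307 bases). A peak of this kind cannot be given to 1 of its genes from these data. The median fold after PPx was 0.80 for the 13 shared peaks and 0.76 for the 25 others.

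The motifs were counted at the members and at other promoters. In the 250 bases before the start, for the 37 members with a RefSeq window in their peak, the ETS box was in 8 (21.6%), against 16.4% of 5617 windows at listed promoter peaks and 8.98% of all 21263 windows. The NRF1 core was in 4 (10.8%, against 13.2% and 7.08%), the SP and KLF box in 20 (54.1%, against 65.4% and 42.6%), the YY1 box in 1 (2.70%, against 2.14% and 1.50%) and the CRE in 1, Mrpl16 (2.70%, against 3.47% and 1.92%). At least 1 of the NRF1, ETS and YY1 motifs was in 12 members (32.4%), against 28.6% and 16.1%. Peaks that rose with genotype held 0 of the 8 windows with an ETS box and 7 of the 29 without one. The median folds with and without the box were 0.68 and 0.80. For the SP and KLF box the counts were 4 of 20 and 3 of 17. For the NRF1 core they were 1 of 4 and 6 of 33. Over all promoter peaks 14.3% rose. Of the 8 with an ETS box, Mrpl52, Mrps22, Mrps27 and Timm8b had peaks of the low concentration at which no member was called. Timm10, another of the 8, rose with PPx in KO-labelled islets. Median GC content was 57.6% for the members and 61.2% for listed promoters. These shares are descriptions of letters in a window.

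In control islets, PPx itself moved no member peak past the threshold. At the deposited FDR 0 of 35 rose and 0 fell, beside 0% of all listed peaks that rose, and the lowest FDR of the table was 0.619. Unadjusted p-values were under 0.05 at 2 members (5.71%, against 2.53% of all listed peaks), both import genes: Timm44 (3.42 to 4.26, fold 0.84, p 0.0342) and the second peak of Timm10b (4.52 to 5.11, fold 0.59, p 0.0332). The median member fold in the authors' deposited table was 0.27, against 0.16 over all listed peaks. Of the member folds 27 of 35 (77.1%) were above 0, against 72.8% of all listed peaks. The lowest were the intron of Mrps27 (fold -0.62), the Mrpl1 promoter (fold -0.44) and Mrps36 (fold -0.26).

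In KO-labelled islets, PPx was followed by higher accessibility at 11 member peaks and by lower accessibility at none. They were at 10 genes: 3 large subunit peaks, 5 small subunit peaks, 1 of TIM23 and 2 of the small TIM group. The 11 are 19.6% of 56 member peaks, read against 7.45% of all listed peaks and 9.73% of promoters. This table too was shifted, with a median fold of 0.83 over all peaks, 0.86 over promoters and 0.99 over members. Of the 56 members, 37 were above the table's median. Unadjusted p-values under 0.05 stood at 38 members (67.9%, all higher), against 39.4% of all listed peaks and 46.2% of promoters.

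Mrps14 had the clearest difference of the members in the authors' deposited table, from 3.65 before to 5.46 after PPx (fold 1.80, SE 0.39, deposited FDR 0.0077), a ratio of 3.48. Its deposited FDR was the lowest of the whole table, shared by 5 peaks. In control islets the same promoter stood at 4.47 before and 4.46 after PPx (fold -0.01). The KO-labelled mean was below the control mean in the table of genotype before PPx and above it in that after PPx. The KO-labelled libraries taken before PPx enter both this fold and the low fold of genotype before PPx.

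Further small subunit peaks rose in the authors' deposited table. Mrps36 went from 2.80 to 4.36 (fold 1.56, SE 0.47, deposited FDR 0.0349), and was called in none of 3 libraries at first and in all 4 later. A peak was listed only if called in 2 or more libraries, so Mrps36 was listed through those taken after PPx alone. Mrps31 went from 3.18 to 4.64 (fold 1.46, deposited FDR 0.0410). The promoter of Mrps28 went from 5.25 to 6.39 (fold 1.14, deposited FDR 0.0426), and its distal peak (chr3:8766756-8767356) from 3.75 to 4.96 (fold 1.21, deposited FDR 0.0490). In controls the folds of these peaks were -0.26, 0.51, 0.33 and 0.42.

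The large subunit peaks that rose were at Mrpl46, Mrpl1 and Mrpl13. In the authors' deposited table, Mrpl46 went from 3.57 to 5.00 (fold 1.43, SE 0.42, deposited FDR 0.0315), with a fold of -0.06 in controls. The intronic peak of Mrpl1 (chr5:96222078-96222678) went from 4.61 to 5.86 (fold 1.25, deposited FDR 0.0422), whereas its promoter had a fold of 1.11 at a deposited FDR of 0.0617. Mrpl13, a conserved subunit, went from 3.42 to 4.65 (fold 1.23, deposited FDR 0.0457). With genotype after PPx the order at Mrpl1 was the other way round: the promoter met the threshold and the intron did not (fold 0.45, deposited FDR 0.264).

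Import genes were among the risen peaks here. The second peak of Timm10b, a small TIM chaperone of the carrier pathway, went from 3.99 to 5.37 (fold 1.38, SE 0.46, deposited FDR 0.0426). Its centre lies 10509 bp downstream of the RefSeq start of Timm10b, although the authors' table annotates it as a promoter, and the peak at that start had a fold of 0.70 and a deposited FDR of 0.110. Timm17b went from 3.75 to 4.96 (fold 1.21, deposited FDR 0.0443) and Timm10 from 4.03 to 5.23 (fold 1.20, deposited FDR 0.0457). Tomm40l (fold 0.80, deposited FDR 0.0924), Tomm70a (0.52, 0.246) and Tomm7 (0.73, 0.262) did not meet the threshold.

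Weak peaks again had the largest folds without a call. The authors' deposited table gives an FDR of 1 to 9 members, with mean concentrations up to 3.17. Among them Mrpl52 went from 1.25 to 3.71 (fold 2.46, SE 0.65, deposited p 0.000144), the distal peak of Mrpl9 from 1.37 to 3.29 (fold 1.93), and Mrpl24 and Timm22 each had a fold of 1.82. The smallest folds were at Mrpl16 (3.31 to 3.23, fold -0.08), Timm8a1 (3.79 to 3.91, fold 0.12) and Timm44 (4.10 to 4.41, fold 0.31). Adjusted over all listed peaks, the deposited p-values called 5 members, Mrps14, Mrpl46, Mrps36, Mrps31 and Mrpl52, beside 4.49% of all listed peaks. Of the 5, Mrps36 and Mrpl52 were called in no library before PPx. They were listed through the libraries where they are high, so their folds are not independent of the listing. Less the median of the table, 0 members passed, beside 0 of all 12767 listed peaks, so this count does not describe the members in particular.

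**Figure D3:**
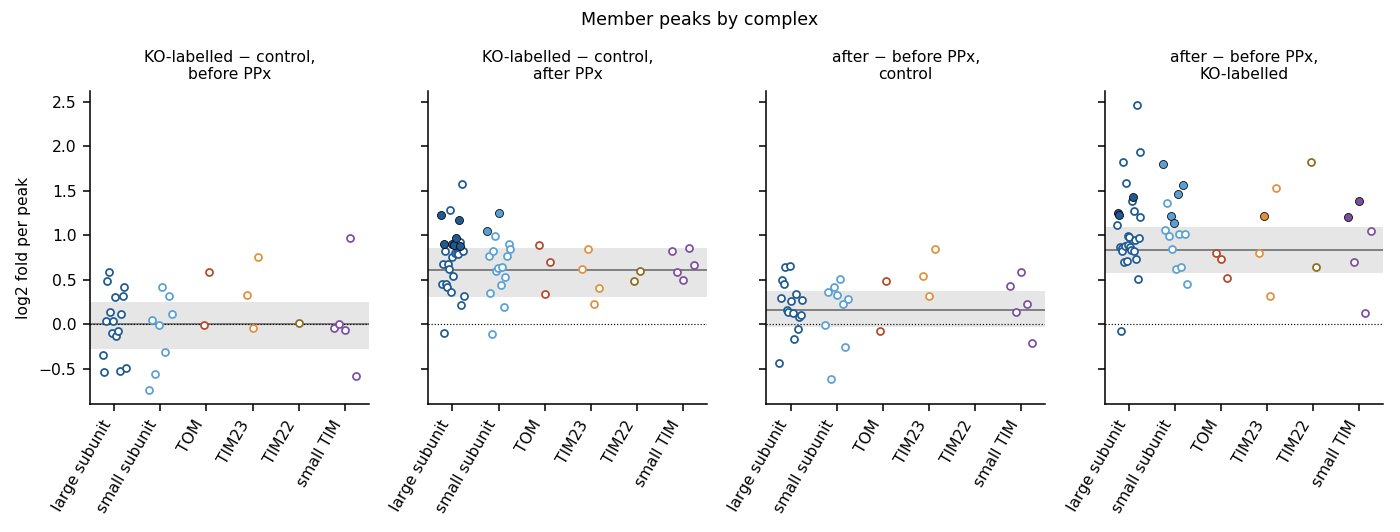
Log2 fold of each member peak by complex in the 4 comparisons; filled points met a deposited FDR of 0.05. The grey line and band give the median and the middle of all listed peaks (lower to upper quartile); members scatter around 0 in the left panel, where the median of all peaks is 0.00, and lie mostly above 0 in both panels that hold KO-labelled islets after PPx.

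The members that met the threshold in both tables were Mrps14, the Mrps28 promoter and Mrpl46, 3 of the 54 member peaks listed in both. How many of all listed peaks met it in both tables was not counted, so the 3 cannot be called many or few. These tables share the 4 KO-labelled libraries taken after PPx, so the values stand side by side without a test. Mrpl39, Mrpl41, Mrpl50, Mrpl15 and Mrpl48, called with genotype, had folds of 0.89, 0.83, 0.73, 0.87 and 0.94 with PPx in the authors' deposited table, at deposited FDRs of 0.0835 to 0.108. Timm17b, Timm10, Mrps36, Mrps31 and Mrpl13, called with PPx, had folds with genotype of 0.84, 0.82, 0.90, 0.64 and 0.67.

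Whether the difference between genotypes itself changed after PPx was tested at the 35 member peaks that overlapped between both tables of genotype, which share no library. The fold after PPx less the fold before had a median of 0.69 over the members and 0.64 over all 7504 matched peaks. It was above 0 at 33 of 35 members (94.3%), against 92.2% of all matched peaks. In a two-sided z test from the implied SE, with Benjamini-Hochberg adjustment over all matched peaks, 0 members passed, beside 0.0267% of all matched peaks, and 6 (17.1%) had an unadjusted p under 0.05, against 14.5% of all matched peaks. Mrps14 came first (difference 1.79, SE 0.52, adjusted p 0.224), followed by Mrpl46 (1.50, SE 0.53), Mrpl57 (2.06, SE 0.74), the Mrpl1 promoter (1.58, SE 0.62), the Mrps27 intron (1.55, SE 0.61) and the Mrpl1 intron (0.99, SE 0.50), with adjusted p of 0.303 to 0.341 for these 5. Timm44 (-0.53, SE 0.59) and Timm8a1 (-0.11, SE 0.69), the members with the highest folds before PPx, were the 2 below 0.

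**Figure D4:**
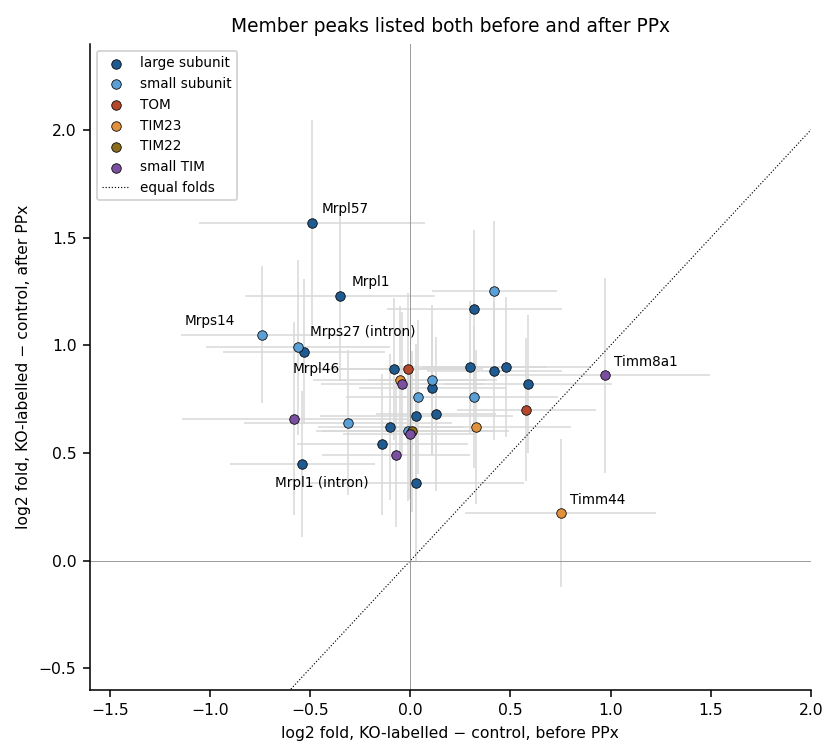
Log2 fold of KO-labelled against control islets before PPx (horizontal) and after PPx (vertical) for the 35 member peaks listed in both states, coloured by complex, with implied SE as grey bars and the line of equal folds dotted. All but Timm44 and Timm8a1 lie above the line, and 92.2% of all matched peaks (not drawn) also had a higher fold after PPx. Mrps14 goes from -0.74 to 1.05.

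Several genes had more than 1 peak. Mrps28 had a promoter, an intronic and a distal peak after PPx, with genotype folds of 1.25, 0.63 and 0.60 in the authors' deposited table. Mrps27 had a promoter (0.82) and an intron (0.99) peak, Mrps31 a promoter (0.64) and a distal peak (0.19), Mrps33 a promoter (0.76) and an intron peak (0.53), Mrpl9 a promoter (0.82) and a distal peak (0.31), and Mrpl19 a promoter (0.82) and a distal peak (0.45). The distal peak of Mrps30 (0.44) was its only one. Except at Mrps27, the promoter had the larger fold in each of these genes. The implied SE of a member fold was 0.37 at the median, and these gaps were not tested. With PPx in KO-labelled islets, the folds in the same order were 1.14, 0.84 and 1.21 at Mrps28, 1.36 and 0.99 at Mrps27, 1.46 and 1.01 at Mrps31, 1.20 and 1.93 at Mrpl9, and 0.85 and 0.82 at Mrpl19. There Mrps33 had its promoter peak only (0.64), Mrps9 a promoter (1.01) and an intron peak (0.45), and the distal peak of Mrps30 had 0.62.

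Part of the member peaks had no counterpart before PPx. Of the 57 members after PPx, 22 (38.6%) had no overlapping peak in the table of genotype before PPx, against 42.8% of all listed peaks. The 22 were weaker, with a median concentration of 3.35 against 4.80 for the 35 others. Mrpl4, Timm29, the Mrps27 promoter and the Mrps27 intron were called after PPx in every KO-labelled library and in no control library. Of these, Timm29 and the Mrps27 intron did overlap a peak listed before PPx. The 4 are 7.02% of the members, against 1.69% of all listed peaks. The 3 promoters among them are 6.25% of member promoters, against 2.17% of all promoter peaks.

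Genes that work with the members were followed through 5 lists. With genotype after PPx, the import motor, processing and sorting list had 3 of 16 peaks risen in the authors' deposited table: Dnajc19, a co-chaperone of the import motor (2.87 to 4.49, fold 1.62, deposited FDR 0.0212), Hspe1, the cochaperonin of the matrix (fold 0.89, deposited FDR 0.0390), and an intron of Immp1l, an inner membrane peptidase (fold 1.15, deposited FDR 0.0393). Of the mitochondrial translation and ribosome assembly list, 2 of 17 rose, at Tfb1m, which methylates the RNA of the small subunit (fold 1.11), and at Mterf3, a regulator of mitochondrial transcription and ribosome assembly (fold 1.03). The mitochondrial DNA expression list had 2 of 7, at the exonuclease gene Mgme1 (1.21) and at Ssbp1, which binds single-stranded mitochondrial DNA (0.93). Of the regulators of nuclear mitochondrial genes, 1 of 11 rose, at the coactivator gene Ppargc1b (1.13). Further mitoribosome proteins had 0 of 3. Over all listed peaks 9.89% rose in this comparison, and over all promoter peaks 14.3%. The lists were not tested as sets. The lowest folds of the 5 lists were at a distal peak of Immp2l (-0.38), at Rpusd3 (0.26), Polg (0.70), Ppargc1a (0.08) and Dap3 (0.53), and no peak of the lists fell.

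With PPx in KO-labelled islets, the import motor list had 5 of 17 peaks risen in the authors' deposited table, at Dnajc19 (fold 1.66), an intron of Grpel2, a nucleotide exchange factor of the motor (1.60), the Immp1l intron (1.51), Timmdc1, an assembly factor of respiratory complex I (1.45), and Hspe1 (1.23). The translation and assembly list had 4 of 17, at Mterf4 (1.58) and Nsun4 (1.39), whose products act together in ribosome assembly, at an intron of Lrpprc, a stabiliser of mitochondrial messages (1.49), and at Mterf3 (1.15). Polg2, the accessory subunit of the mitochondrial DNA polymerase (1.59), was the 1 of 7 in the mitochondrial DNA list, and Sp1 (1.02) the 1 of 13 among the regulators, with 0 of 3 further mitoribosome proteins. Over all listed peaks 7.45% rose here, and over all promoter peaks 9.73%. The lowest of the lists were Dnajc15 (0.18), Rpusd3 (0.45), Polg (0.70), a distal peak of Yy1 (0.29) and Aurkaip1 (0.42), and again none fell. In the other tables, of genotype before PPx and of PPx in controls, 0 peaks of these 5 lists met the threshold, beside unadjusted p under 0.05 at 0 and 1 peaks.

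Other sets of housekeeping genes give a scale for these counts. Cytosolic ribosomal protein genes had 9 of 48 peaks risen with genotype after PPx (18.8%, median fold 0.71), and genes of the respiratory chain and ATP synthase 9 of 59 (15.3%, median 0.62), with 1 fallen, beside the 15.8% of members. With PPx in KO-labelled islets they had 6 of 49 (12.2%, median 0.95) and 6 of 57 (10.5%, median 0.97), beside the 19.6% of members. No test set the members apart from these sets.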

How the data were processed

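ATAC-seq reads were processed with tools that include cutadapt, BWA, MACS, DiffBind and ChIPseeker, on mm10, per the submitters' processing notes; versions and settings are not given in the sources used here. In their 4 tables the authors deposited log2 group means and log2 folds of normalised reads per peak, p-values, FDR and, as counts of libraries, how often a peak was called. The test and the scaling between libraries are not named. Depth per library is unknown, and single-library values are not analysed here.

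Repeated rows were dropped and folds were turned. An implied SE is the size of a fold over the normal quantile (two-sided) of its p; where the fold was below 0.1 or p reached 0.95, the median SE of its bin of concentration, out of 40 bins, was used. Peaks counted as matched between tables if they shared 1 bp or more. Scripts used Python 3.11.15, pandas 2.3.3 and scipy 1.17.1 and were tested on simulated data. Members and lists were chosen with earlier results of these data known. Genes were named by rule: member peaks at an FDR of 0.05 or below, the 3 highest and 3 lowest folds of each table, non-promoter peaks, genes with more than 1 peak, the best and lowest of each complex, and the called and lowest genes of each pathway list.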

Additional observations from a re-analysis of the deposited data

How the results depend on the processing

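No paired analysis was possible because the tables hold group means only, with no replicate columns; for the same reason no library could be left out. Other thresholds moved the number of risen members most. With genotype after PPx the 9 became 0 at an FDR of 0.01, 20 at 0.10 (25.9% of all listed peaks rose or fell at it), 5 with p adjusted over all listed peaks and 27 unadjusted. With PPx in KO-labelled islets the 11 became 1, 28 (31.1% of all listed peaks), 5 and 38. At an FDR of 0.01, 3 of all 13111 listed peaks passed with genotype after PPx, and 5 of all 12767 with PPx in KO-labelled islets. In controls the 0 became 2 unadjusted (2.53% of all listed peaks), and for the difference of the genotype effect 6 (14.5% of all matched peaks). With folds less the table median, or less the median of their promoter class and concentration, 0 members passed in either table, and the member medians became 0.09 and 0.06 (genotype after PPx) and 0.16 and 0.11 (PPx in KO-labelled islets). Of all listed peaks, 52 and 29 passed with genotype after PPx, and 0 and 0 with PPx in KO-labelled islets. Keeping promoters only, 1 peak per gene or the repeated rows, or asking for 1 more character in the symbol, gave 9, 8, 11 and 8 risen with genotype, and 9, 9, 15 and 10 with PPx. Of the folds above 0, those of 19 and 22 members turned below 0 with the table and the class median taken off, in that order, with genotype after PPx, and of 17 and 18 with PPx in KO-labelled islets; no called member was among them. Low concentration limits what can be called, since weak peaks have a deposited FDR of 1.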
